A study of Mus musculus with 3 samples.

Results

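The fragile X family comprises the genes Fmr1, Fxr1 and Fxr2, which code related RNA-binding proteins. Its members were taken as the exonic parts listed under those gene names, and 62 of 469293 parts in the table met that rule, 34 of Fxr1 and 28 of Fxr2. No part is listed under the name Fmr1. Fmr1 (ENSMUSG00000000838) overlaps the short RNA gene Gm27838 (ENSMUSG00000098736), and the table merges their 37 parts into an unnamed group, which is described separately and kept out of the members' counts. Exonic parts are the pieces into which overlapping exons of a gene divide at each annotated exon edge.

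Skeletal muscle RNA was sequenced from 12-week-old mice in 3 libraries, 1 each of mice homozygous for an Rbm20 knock-in, heterozygous for it, and wild type. The knock-in is the missense change I538T, made with CRISPR/Cas, the mouse counterpart of human I536T. RBM20 binds RNA and regulates splicing in striated muscle. The sources used here do not give the muscle sampled, the sex of the mice or the number of animals behind each library. Other ages that the labels mention were not analysed here. With 1 library per genotype, no difference has a replicate check and no p-value is given. All 95% intervals therefore cover counting error only. The reads carry no molecular identifiers, so copies of the same molecule count as separate reads and the intervals can be too narrow even for that.

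FMR1, FXR1 and FXR2 proteins bind messenger RNA, sit on polysomes and in cytoplasmic granules, and act on translation and messenger stability. FXR1 is the family member best known in striated muscle, where mice without it have heart and muscle defects, and its messenger there carries an alternative exon near the 3′ end that most other tissues leave out. Changes in these exons have been tied to muscle disease in humans.

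The genes have kept a common exon plan. Exons 2 to 10 have the same lengths in Fxr1-201, Fxr2-201 and Fmr1-204, GENCODE M21 transcripts on GRCm38, which is also the build of the exonic parts. Over these 9 exons and 939 bases, Fxr1 and Fxr2 share 71.8% of bases, Fxr1 and Fmr1 71.2%, and Fxr2 and Fmr1 67.0%. The longest run of identical bases between Fxr1 and Fxr2 there is 20 bases. The alternative coding parts of Fxr1 lie after this stretch, in exons 12, 15 and 16 of the 17 exons of Fxr1-201.

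The sequences of these alternative parts are shown because the results turn on which of them a messenger keeps. They are read from the GENCODE M21 transcript Fxr1-201, plus strand of chromosome 3. The first is a stretch inside exon 12 at chr3:34058082-34058168. Its capitals mark the first and last dinucleotides, GT and AG, the ends that an intron has.
87-base segment of exon 12: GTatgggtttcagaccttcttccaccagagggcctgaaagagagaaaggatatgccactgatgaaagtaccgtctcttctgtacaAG
The next is the muscle exon, at chr3:34064974-34065054, which is coding and in frame.
81-base muscle exon, exon 15: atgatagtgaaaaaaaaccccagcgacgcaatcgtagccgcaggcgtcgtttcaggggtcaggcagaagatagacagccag
The last alternative exon, at chr3:34068161-34068252, is not a multiple of 3 bases long.
92-base exon, exon 16: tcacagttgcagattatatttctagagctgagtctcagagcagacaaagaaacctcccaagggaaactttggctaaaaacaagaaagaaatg
Leaving it out shifts the frame and brings into use the stop codon in capitals at the start of exon 17, at chr3:34068917-34068933.
start of exon 17: gcaaaagatgtgatTGA

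Reading the frame through these sequences gave 677 codons when all exons of Fxr1-201 were kept. Removing the 87-base segment took away 29 codons and left the stop codon in place, and removing the muscle exon took away 27 in the same way. Without the 92-base exon the protein ended at 34068931 to 34068933, 82 codons shorter and 154 bases before the other stop. Of the 5 annotated coding transcripts that reach exon 17, 2 hold the 87-base segment, 1 holds the muscle exon and 2 hold the 92-base exon. Coding exons of 81 to 92 bases begin with GT and end with AG in 8.43% of 14034 cases in the annotation.

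The comparison of homozygous with wild-type muscle asked which exons of these genes are kept more or less often, as PSI, percent spliced in, an estimate of how many of the gene's messengers contain the part. A part was called different at 20 percentage points or more with at least 10 reads in both libraries. The segment inside exon 12 was the member part that met this rule. It was kept in fewer Fxr1 messengers of homozygous muscle, while the muscle exon was kept in nearly all of them in every library. That is 1 of 59 measured member parts, against 5.57% of all parts measured in this pair. Fxr1 held 31 of the 59 and Fxr2 28, and the 3 parts of Fxr1 that were not measured are 5, 3 and 26 bases long in its last exon.

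The 87-base segment had 396 inclusion and 425 exclusion reads in homozygous muscle, 568 and 225 in heterozygous, and 664 and 213 in wild type. Its PSI was 35.9% (32.8 to 39.1) in homozygous, 60.3% (56.5 to 63.9) in heterozygous and 65.2% (61.6 to 68.6) in wild-type muscle. The homozygous library stood apart, and the intervals of the other two overlapped. Homozygous minus wild type was -29.3 points (-33.9 to -24.5). Heterozygous minus wild type was -4.93 points (-9.99 to 0.167), an interval that holds 0.

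Both kinds of read differed. Exclusion reads of the segment were 15.1 per 1000 inclusion reads of Fxr1 in homozygous muscle, 8.01 in heterozygous and 7.44 in wild type. The touching coding parts on either side had no exclusion reads and had 785 and 997 inclusion reads in homozygous, 682 and 796 in heterozygous, and 759 and 869 in wild-type muscle. From inclusion reads alone, the density of reads in the segment was 39.1%, 67.6% and 71.7% of the mean of those neighbours in homozygous, heterozygous and wild-type muscle. The segment was therefore low in homozygous muscle by either measure, with a difference from wild type of -32.6 points by the second.

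**Figure D1:**
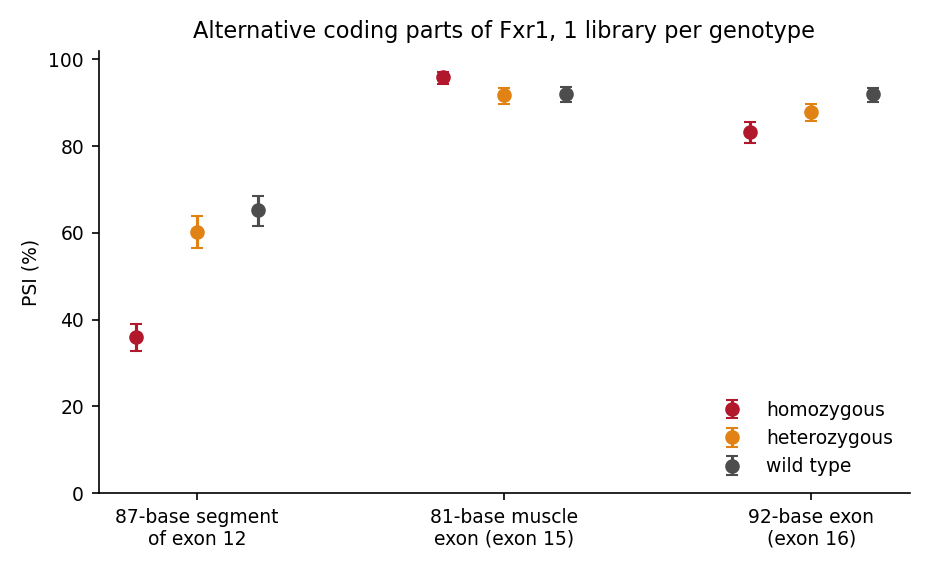
PSI in percent (y axis) of the 3 alternative coding parts of Fxr1 (x axis), with a point per library and 95% Wilson intervals of counting error. The homozygous point of the 87-base segment, at 35.9%, lies far below the heterozygous and wild-type points at 60.3% and 65.2%, while the muscle exon is above 90% in all 3 libraries.

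Against other parts of middling inclusion the segment was not alone in a difference of this size. Parts with at least 100 reads in both libraries and a wild-type PSI of 20 to 80% numbered 4226, and 32.6% of them differed by 20 points or more between homozygous and wild type. A difference at least as far from 0 as that of the segment was found in 610 of the 4226, or 14.4%, and one at least as low in 224, or 5.30%. Among these parts, 120 were of the same layout, an optional stretch that touches constitutive parts on both sides, and 47 of them, 39.2%, differed by 20 points or more. Lower PSI in homozygous muscle made up 31 of those, 25.8% of the 120. As low a difference as that of the Fxr1 segment, itself included, was found in 15 of the 120, or 12.5%. One as far from 0 in either direction was found in 22, or 18.3%. The median difference of the 120 was -7.65 points, so this class leaned lower in homozygous muscle. These counts describe the 2 libraries, and many parts of other genes had differences of this size.

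**Figure D2:**
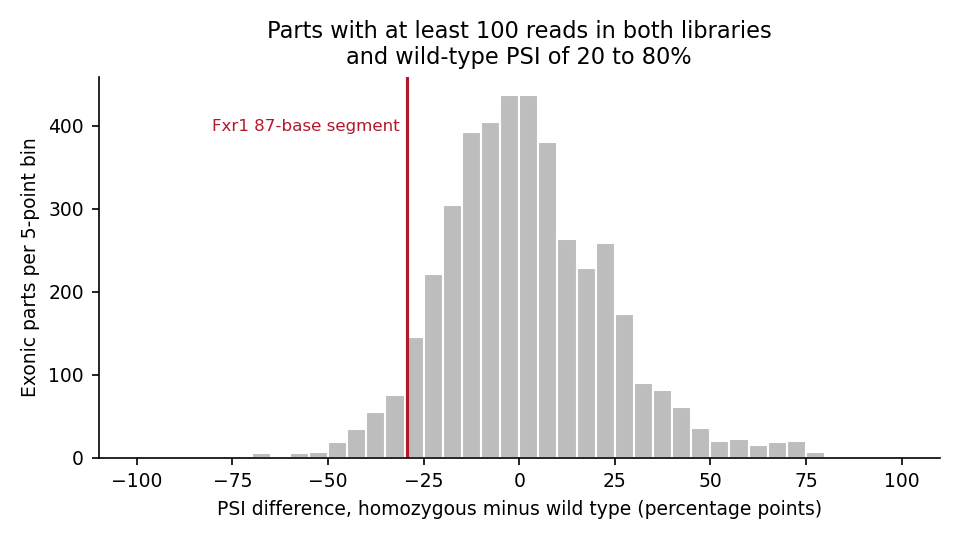
Number of exonic parts per 5-point bin (y axis) by PSI difference, homozygous minus wild type in percentage points (x axis), for the 4226 parts with at least 100 reads in both libraries and wild-type PSI of 20 to 80%. The line marks the Fxr1 87-base segment at -29.3 points, with 224 parts as low or lower.

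The core TCTT, bound by RBM20 as UCUU in RNA, occurs 2 times in the segment as read in the messenger. Its reverse complement AAGA, which is not that core in the messenger, occurs 1 time. Neither the muscle exon nor the 92-base exon holds TCTT, while AAGA occurs 1 time in the muscle exon and 3 times in the 92-base exon. Of coding exons of 81 to 92 bases, 30.1% hold TCTT, 5.91% hold it at least 2 times and 51.7% hold AAGA. A match describes the letters and is not a binding site, and introns were not searched.

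The muscle exon itself had 1269 inclusion and 34 exclusion reads in homozygous muscle, 1291 and 72 in heterozygous, and 1360 and 72 in wild type. Its PSI was 95.8% (94.3 to 97.0) in homozygous, 91.7% (89.7 to 93.4) in heterozygous and 92.1% (90.2 to 93.7) in wild-type muscle. It was kept in over 9 messengers of 10 in each library. Homozygous minus wild type was 3.74 points (1.52 to 5.96), above 0 by counting error but far under the 20 points of the rule. Heterozygous minus wild type was -0.387 points (-2.91 to 2.12).

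The 92-base exon that follows it differed in the other direction. It had 1242 inclusion and 147 exclusion reads in homozygous, 1457 and 117 in heterozygous, and 1622 and 83 in wild-type muscle. Its PSI was 83.2% (80.7 to 85.5) in homozygous, 88.0% (85.8 to 89.8) in heterozygous and 91.99% (90.2 to 93.5) in wild-type muscle. The heterozygous library lay between the others. Homozygous minus wild type was -8.76 points (-11.7 to -5.89) and heterozygous minus wild type -4.01 points (-6.61 to -1.44), neither past the rule.

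The exclusion counts of these neighbouring exons also bound how they combine. A read that skips both exons counts once for each, so the excess of reads skipping the 92-base exon over reads skipping the muscle exon must come from messengers that leave out the 92-base exon but not the muscle exon. That excess was 113 reads in homozygous, 45 in heterozygous and 11 in wild-type muscle. It made up at least 76.9%, 38.5% and 13.3% of the reads that skip the 92-base exon in the same libraries. None of the 5 coding transcripts that reach exon 17 holds the muscle exon without the 92-base exon. Of them, 1 holds both, 1 holds the 92-base exon alone and 3 hold neither. By the frame above, such a messenger keeps the 27 codons of the muscle exon and uses the early stop codon, for 595 codons if it also keeps the 87-base segment.

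**Figure D3:**
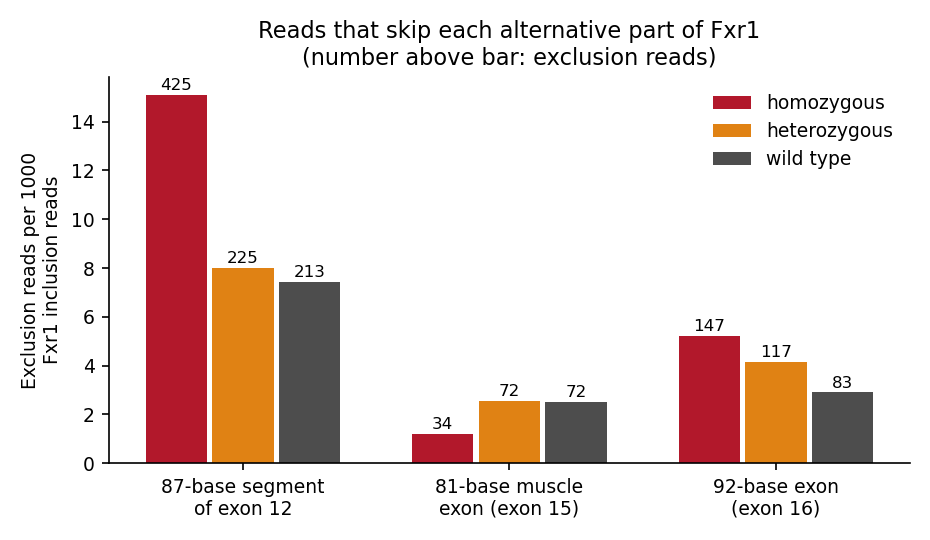
Exclusion reads per 1000 inclusion reads of Fxr1 (y axis) for the 3 alternative coding parts (x axis), with bars for the homozygous, heterozygous and wild-type libraries and the number of exclusion reads above each. Reads that skip the 87-base segment and the 92-base exon are most frequent in the homozygous library, and reads that skip the muscle exon least frequent there.

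The rest of Fxr1 was constitutive. Of the 31 parts measured in all 3 libraries, 23 had no exclusion read in any library, and 5 others, stretches of introns kept in non-coding transcripts or a short coding transcript, had a PSI of at most 1.54%. The remaining 3 are the alternative parts above. Coding parts of Fxr1 had at least 610 reads each in every library.

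At its 3′ end Fxr1 has a longer untranslated form in the annotation. Reads in the 951 bases special to that form were scarcer in both knock-in libraries, but few reads linked them to the rest of Fxr1. That part (34069372 to 34070322) had 1029 reads in homozygous, 1184 in heterozygous and 2324 in wild-type muscle. The part of the last exon shared by all these transcripts (34068917 to 34069337) had 2830, 3512 and 3507. Per base, the longer end had 18.5% of the density of the shared part in homozygous, 17.2% in heterozygous and 33.8% in wild-type muscle. The 3 short parts between them, 34 bases together, held 0 reads in homozygous muscle, between 3 and 4 each in heterozygous and between 12 and 20 each in wild-type muscle, far fewer than in the parts on either side. Whether the reads of the 951 bases come from Fxr1 messengers was not tested.

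Fxr2 showed no alternative coding part. All 28 of its parts were measured in the 3 libraries. Its 17 coding parts had a PSI of 95% or more in each, including exons 15 and 16, which are 96 and 98 bases long and hold the same places in the exon order as the muscle exon and the 92-base exon of Fxr1. The wild-type library had 1 exclusion read over most of these parts and the others had 0. Of the 11 remaining parts, 3 are untranslated in whole or in part and had a PSI of 100%, and 5 parts of non-coding transcripts had at most 1.81%. The other 3 lie in non-coding transcripts too, 2 of them side by side. None of the 28 parts was called in homozygous against wild-type muscle. In heterozygous against wild-type muscle 0 of 59 member parts of either gene were called, where 5.78% of all measured parts were.

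Between homozygous and heterozygous muscle 2 of 59 member parts were called, against 5.52% of all measured parts. One was the Fxr1 segment, at -24.4 points (-29.1 to -19.4). The other was a 110-base part of a non-coding Fxr2 transcript (chromosome 11, 69651129 to 69651238) with 0 inclusion and 19 exclusion reads in homozygous, 26 and 49 in heterozygous, and 9 and 32 in wild-type muscle. Its PSI was 0% (0 to 9.90), 22.4% (15.3 to 31.6) and 13.3% (6.90 to 23.97) in the same libraries, and with at least 20 reads it is not measured. A retained stretch of 290 bases in another non-coding Fxr2 transcript (69643548 to 69643837) had 0 inclusion reads in homozygous and in heterozygous muscle, against 38 in wild type, where its PSI was 8.0% (5.73 to 11.1).

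Read density along the coding parts was uneven in both genes. With constitutive coding parts split in order into 3 groups of like number, the 3′ group of Fxr1 had 1.06 times the density of the 5′ group in homozygous, 0.975 times in heterozygous and 1.20 times in wild-type muscle. In Fxr2 the ratios were 1.52, 1.38 and 1.78. In the Fmr1 coding parts of the merged group they were 0.518, 0.414 and 0.541, so there the 3′ group was the sparser in each library. The median ratio over 4232 genes, untranslated parts included, was 1.79, 1.84 and 1.83 in the same libraries. The libraries were alike in this sign of RNA quality, and the ratios of Fxr1 were closer to 1 than that median.

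**Figure D4:**
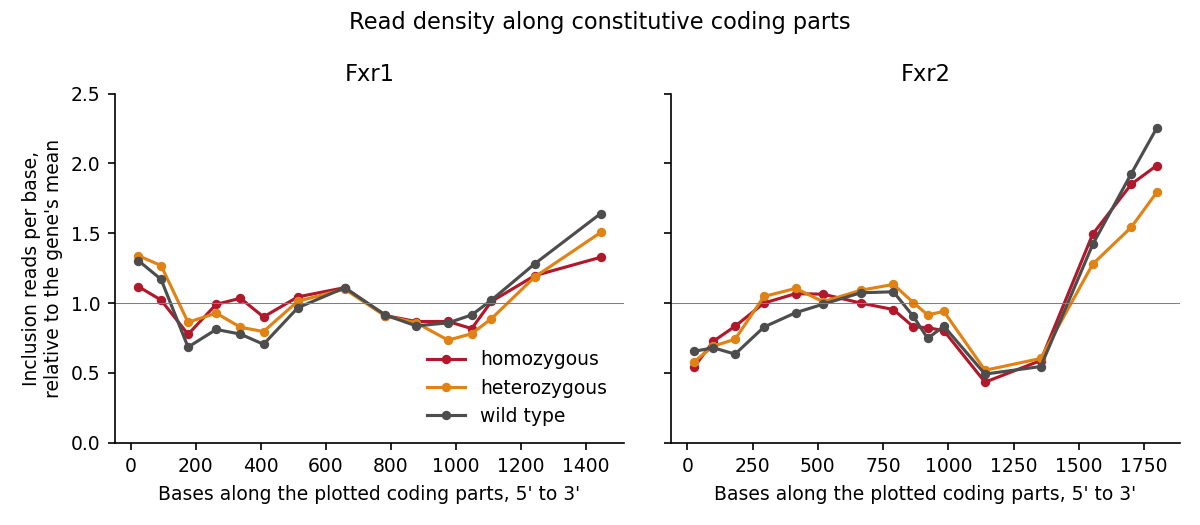
Inclusion reads per base in constitutive coding parts of at least 30 bases, relative to the gene's own mean (y axis), along the coding parts from 5′ to 3′ in bases (x axis), for Fxr1 (left) and Fxr2 (right), with a line per library. Density is highest at the 3′ end in both genes, more so in Fxr2, and the 3 libraries follow similar courses.

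Fxr1 was the most abundant of the family in every library. Levels are RPM, inclusion reads of a gene per 1000000 inclusion reads of its library. Fxr1 had 130.5 RPM in homozygous, 105.9 in heterozygous and 119.4 in wild-type muscle. Fxr2 had 31.02, 35.3 and 30.04 RPM in the same libraries. In bulk tissue, fewer cells of a type and less RNA per cell cannot be told apart.

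Neither gene differed by 2-fold or more in any pair, where 12.1% of 9427 genes with at least 5 RPM in a library did so between homozygous and wild type, 9.09% between heterozygous and wild type and 16% between homozygous and heterozygous. On the log2(RPM + 1) scale, Fxr1 differed by 0.13 (0.10 to 0.15) for homozygous over wild type, -0.17 (-0.20 to -0.15) for heterozygous over wild type and 0.30 (0.28 to 0.32) for homozygous over heterozygous. Fxr2 differed by 0.05 (-0.00 to 0.09), 0.23 (0.18 to 0.27) and -0.18 (-0.23 to -0.14) in the same pairs. These intervals treat counts summed over parts as separate reads, although a read can count in several parts, so they are too narrow. The medians over all 9427 genes were -0.18, 0.10 and -0.28, opposite in sign to Fxr1 in each pair. With median-of-ratios scaling Fxr1 was at 0.35, -0.25 and 0.60, and Fxr2 at 0.26, 0.15 and 0.11, so the sign of the last difference of Fxr2 depended on the scaling.

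Compared per length, coding reads per kilobase per 1000000 were 23.7 for Fxr1, 5.81 for Fxr2 and 0.726 for Fmr1 in homozygous muscle. They were 18.4, 6.45 and 0.891 in heterozygous and 19.9, 5.10 and 1.29 in wild-type muscle. Fxr1 thus stood 2.85 to 4.08 times above Fxr2 across the libraries, and 15.5 to 32.6 times above Fmr1. That order held in each library.

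**Figure D5:**
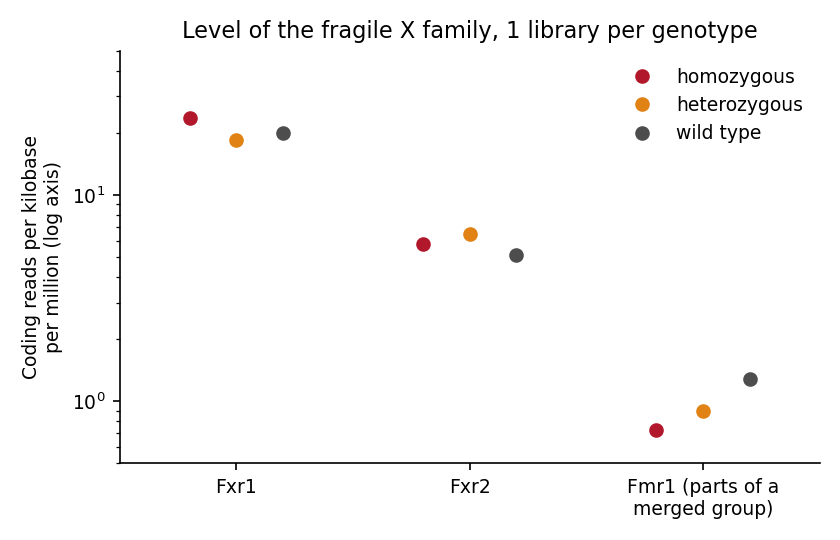
Coding reads per kilobase of coding part per 1000000 inclusion reads (y axis, log scale) for Fxr1, Fxr2 and the Fmr1 parts of the merged group (x axis), with a point for each of the homozygous, heterozygous and wild-type libraries. Fxr1 is highest and Fmr1 lowest in every library, and the Fmr1 points spread furthest.

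Fmr1, whose silencing causes fragile X syndrome in humans, can be read only from the merged group. Of the 37 parts, 34 lie outside Gm27838, and these held 1270 reads in homozygous, 3027 in heterozygous and 2726 in wild-type muscle, or 5.88, 11.4 and 11.4 RPM. Homozygous against wild type was -0.85 (-0.94 to -0.75) on the log2(RPM + 1) scale, short of 2-fold, though by the median density of parts it was -1.08, and heterozygous against wild type 0.00 (-0.07 to 0.08). In parts that are coding along their whole length the second difference was -0.43. The last part, of whose 2399 bases 111 are coding, had 450 reads in homozygous, 1503 in heterozygous and 1024 in wild-type muscle. It was highest in the heterozygous library.

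Splicing of Fmr1 rested on few reads. By the rule, 2 of 32 parts of the group differed between homozygous and wild type, 3 of 32 between heterozygous and wild type and 4 of 31 between homozygous and heterozygous. Over all measured parts these shares were 5.57%, 5.78% and 5.52%, so the count in the first pair was near the background. The exons below are described because they met the rule. Exon 12 of Fmr1-204, a 63-base exon known to be alternative (chromosome X, 68705861 to 68705923), had 1 inclusion and 11 exclusion reads in homozygous, 17 and 0 in heterozygous, and 26 and 7 in wild-type muscle. Its PSI was 5.78% (1.01 to 27), 100% (74.9 to 100) and 71.5% (52.7 to 85.0). The homozygous library was lower than both others beyond counting error, from 12 reads.

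The 75 bases that begin exon 15 of Fmr1 (68712231 to 68712305), absent from 2 of 6 coding transcripts, had 18 inclusion and 0 exclusion reads in homozygous, 6 and 12 in heterozygous, and 60 and 0 in wild-type muscle. The PSI was 100%, 24.1% (11 to 45.0) and 100%, so here the heterozygous library stood apart. Exon 4 (68695014 to 68695085), present in all 6 coding transcripts, had 7 exclusion reads in homozygous muscle and 0 in both others, for a PSI of 65.9% (45.7 to 81.6) against 100% in heterozygous and in wild type. A 900-base retained stretch after exon 3 (68691595 to 68692494) was at 25.5% in homozygous, 64.5% in heterozygous and 36.9% in wild-type muscle. No single library was at the low end of all these parts.

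Proteins that bind the fragile X family or share its granules were looked at as lists. A part differed between homozygous and wild-type muscle in 7 of 20 measured genes of 23 known partners, 2 higher only, 4 lower only and 1 both, where 23.6% of 19005 named genes had such a part. For granule proteins it was 10 of 29 measured genes of 35, 3 higher only, 6 lower only and 1 both. For messengers reported as FXR1 targets in heart or muscle it was 4 of 7 measured genes of 8, 1 higher only and 3 lower only. The shares were thus 35.0%, 34.5% and 57.1%, each above the background share, with no test of the difference. The shares over named genes, here and for the lists below, were not matched for level or number of parts. The median gene's largest part difference was 14.7, 12.9 and 20.6 points in these lists, against 0.46 over all genes. Whether the lists differ from genes of like depth was not tested.

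In heterozygous against wild-type muscle a part differed in 7 of 20 partners, 14 of 29 granule proteins and 1 of 6 FXR1 targets, against 24.3% of named genes. In homozygous against heterozygous muscle it was 4 of 20, 16 of 29 and 3 of 6, against 23.4%. By level, 0 of 18 partners and 0 of 26 granule proteins with at least 5 RPM in a library were 2-fold apart between homozygous and wild-type muscle, against 12.1% of all genes. Their median log2 differences were 0.05 and -0.10, against -0.18 over all genes. Between heterozygous and wild-type muscle, against 9.09% of genes, Pak1, a kinase partner, was lower by 2-fold or more (-1.06) and Taf15 higher (1.15). Between homozygous and heterozygous muscle, against 16% of genes, Dicer1 (1.20) and Pak1 (1.59) were higher and Top3b (-1.14) and Taf15 (-1.28) lower.

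Ubap2l, a granule protein that is needed for stress granules to form, had a 60-base coding exon (chromosome 3, 90031311 to 90031370) with 8 inclusion and 70 exclusion reads in homozygous, 72 and 76 in heterozygous, and 64 and 36 in wild-type muscle. Its PSI was 7.27% (3.69 to 13.8), 39.4% (32.04 to 47.2) and 54.9% (44.8 to 64.7). The order of the libraries was that of the Fxr1 segment. The other genes ranked highest in their lists differed in parts that are not coding along their whole length, or at a 3-base coding site.

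Among partners, Top3b, a topoisomerase that acts on RNA, had a non-coding part at 0% in homozygous, 9.56% in heterozygous and 100% in wild-type muscle. Csnk2a1, a casein kinase subunit, had such a part at 6.36%, 22.3% and 100%, and Mov10, an RNA helicase, at 13.5%, 44.1% and 100%. Smn1, the gene of the survival motor neuron protein in mice, had one at 68.9%, 0% and 8.10%. The first 3 had 0 exclusion reads in wild type, where their reads numbered 40, more than 100 and 103.

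Among granule proteins, Taf15, an RNA-binding protein, had a non-coding part at 20.02% in homozygous, 44.3% in heterozygous and 100% in wild-type muscle, from 11 reads in homozygous. Ddx6, a helicase of processing bodies, had a 32-base part at 34.2%, 72.5% and 100%, and Xrn1, the exonuclease that degrades decapped messengers, a part at 36.8%, 0% and 100%, neither of them coding along its whole length. The parts of Taf15, Ddx6 and Xrn1 had 0 exclusion reads in wild type, from 30, 26 and 53 reads. The 0% of Xrn1 in heterozygous muscle came from 14 reads. Among FXR1 targets, Tln2, the gene of talin 2, had a retained stretch at 0.201% in homozygous, 2.77% in heterozygous and 23.8% in wild-type muscle, and Gja1, the gene of connexin 43, one at 0%, 12.2% and 20.6%. Pkp2, the gene of plakophilin 2, had one at 100% (20.6 to 100), 13.3% and 7.30%, the first from 12 reads, and Myc a 3-base coding part at 60.1%, 88.8% and 91.0%. Of 4 targets measured by level, Gja1 was 2-fold lower in homozygous than in wild-type muscle, where 10.1% of all genes were, with 2.98 RPM in homozygous, 10.2 in heterozygous and 12.4 in wild type. Gja1 (-1.49) and Myc (-1.09) were 2-fold lower in homozygous than in heterozygous muscle.

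Splicing factors of muscle were compared by level. Rbm20, the targeted gene, had 2.97 RPM in homozygous, 10.8 in heterozygous and 12.97 in wild-type muscle, a log2 difference of -1.82 for homozygous against wild type, and was the 1 of 10 measured factors that was 2-fold apart in that pair, near the 12.1% of all genes. By splicing, 5 of 10 factors had a part called in each pair, against 23.6% of named genes between homozygous and wild type, 24.3% between heterozygous and wild type and 23.4% between homozygous and heterozygous. The reads do not show which allele they came from. Rbfox1 had 108.1, 80.3 and 76.5 RPM, and Mbnl1 157.3, 181.8 and 179.8, neither 2-fold apart. Ptbp2 had 5.94, 10.8 and 4.79 RPM and was 2-fold apart between heterozygous and wild type, and Rbm20 was so between homozygous and heterozygous (-1.57).

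Markers of fibre types and other cells differed between the libraries too. Fast-fibre genes summed to 181588 RPM in homozygous, 139814 in heterozygous and 151126 in wild-type muscle, and genes of all fibres to 61106, 47222 and 50210, so each library was mainly muscle. Slow-fibre genes summed to 135, 895 and 2325 RPM, with 8 of 8 lower by 2-fold or more in homozygous than in wild type, where 10.1% of all genes were, and 6 of 8 in heterozygous, where 3.14% were. Nerve genes summed to 18.8, 64.4 and 55.2 RPM, 4 of 5 lower in homozygous, against the same 10.1%. Macrophage genes summed to 64.8, 179.6 and 123.9, 2 of 5 lower, against that share too. Neutrophil genes summed to 74.8, 86.1 and 8.89 RPM, 3 of 4 higher by 2-fold or more in each knock-in library, where 2.05% of genes in homozygous and 5.95% in heterozygous were, with Ngp at 0 in wild type. Slow-fibre, nerve and macrophage genes were thus lowest in the library with the lowest PSI of the Fxr1 segment. So were the sums of the fat-cell, fibroblast, endothelial and blood genes given next. The part of any of these lists in that result was not tested.

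The remaining lists moved less evenly. Fat-cell genes summed to 2312 RPM in homozygous, 7700 in heterozygous and 3778 in wild-type muscle, tendon genes to 124.5, 199.1 and 98.7, and fibroblast genes to 604, 1312 and 1007. Endothelial genes summed to 70.5, 98.5 and 101.6 RPM and blood genes to 2597, 5211 and 4261. Satellite-cell genes summed to 9.13, 7.26 and 4.34 RPM, immature-fibre genes to 174.2, 114.0 and 122.0, and heart genes to 746, 167.4 and 787. Of the satellite-cell sum, Chodl made up 8.67, 6.17 and 2.78 RPM, while Pax7 had 0.371, 0.358 and 1.52. Myf5 had 0.046, 0.196 and 0.042 RPM and Calcr 0.046, 0.535 and 0, so that sum mainly followed Chodl. Of the heart sum, Actc1 made up 737.7, 154.5 and 758 RPM, while Myh6 had 1.94, 5.24 and 16.9 and Tnnt2 6.10, 7.65 and 11.3. Values were found for 3 of 5 fibroblast, 6 of 7 tendon and 4 of 5 heart genes. Against wild type, 2 of 6 fat-cell genes and 1 of 4 heart genes were lower by 2-fold or more in homozygous muscle. Of genes with at least 5 RPM in a library, 10.1% were so. Higher by as much there were 2 of 6 tendon genes and 1 of 4 satellite-cell genes, against 2.05%. In heterozygous muscle 4 of 6 tendon genes, 1 of 6 fat-cell genes, 1 of 5 nerve genes and 1 of 5 macrophage genes were higher, against 5.95%. Lower there were 2 of 4 heart genes and 1 of 4 immature-fibre genes, against 3.14%. None of the fibroblast, endothelial or blood genes with values differed by 2-fold in either knock-in library. Lists of so few genes allow no more than this description. Calcr, Chrng and Nppa were at 0 in at least 1 library.

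The nearest patterns to the members were sought as a description. Over 3 libraries, the genes whose log2 differences from wild type in homozygous and heterozygous muscle were closest to those of Fxr1 were Rpp30, Asph, Mthfd1, Cyb5d2 and Zbtb17, within a Euclidean distance of 0.0088 to 0.016. For Fxr2 they were Zfp24, Sdhd, Zfp655, Znhit3 and Washc3, within 0.0054 to 0.015. With 7053 genes compared over so few libraries, close matches are common.

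For the muscle exon, the nearest of 6821 coding parts with at least 100 reads were in Ppa2, Svil, Gtf2i, Tmem147 and Uqcrc1, within 1.03 to 1.60 points. For the 87-base segment, the nearest were in Map7d1, Nptn, Fubp1, Cop1 and Inppl1, within 9.84 to 11.1 points. The part of Map7d1, 111 bases long, was at 41.6% in homozygous, 61.6% in heterozygous and 73.1% in wild-type muscle.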

How the data were processed

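The authors' deposited table lists exonic parts with their length and, for every library, the raw counts of reads that include or skip the part and PSI as a fraction. It also holds a score, wild-type PSI minus that of the other genotype, per the file headers. Differences here, in percentage points, are homozygous or heterozygous minus wild type, or homozygous minus heterozygous. Per the labels' protocols, libraries were made with a SMART-seq low-input kit and Nextera XT and run on a NovaSeq. Tools listed in the submitters' processing notes, without roles, are TopHat2 2.0.14, Bowtie 1.1.1, cutadapt 1.1 and Trimmomatic 0.32, with GRCm38 as the build. The sources used here do not name the program that counted exonic parts. The deposited PSI fraction is I/(I + E) within 5e-07, where I is inclusion reads over part length plus 131 and E is exclusion reads over 131. The kit keeps no strand in standard use, so reads of overlapping genes cannot be told apart. Merged groups of overlapping genes hold 40250 parts, of which only those of the Fmr1 group are described.

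Inclusion reads summed to 215923385 in homozygous, 265358773 in heterozygous and 239837797 in wild-type muscle. A read can count in several parts. Intervals at 95% are Wilson's for the share of inclusion reads, moved to the PSI scale, with Newcombe's method for differences. Intervals of log2 differences treat the counts summed over a gene's parts as separate reads. Because a read can count in several parts, they are too narrow even for counting error. Levels used a pseudocount of 1 RPM.

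The members and lists were chosen with earlier results of these data known. Named genes are the members, the 4 genes of each list with the part whose Newcombe bound nearest 0 was the furthest from it in homozygous against wild type, and the 5 nearest patterns. In the lists, 10 genes have no row of their own and no value. The use of the Fmr1 parts of the merged group, the 87-base segment as a result of its own, the counts of parts with a wild-type PSI of 20 to 80%, and the rule for optional stretches (PSI of 95% or more in both touching parts) were chosen after seeing the data. Parts were placed with GENCODE M21. The calling rule was tested on simulated data. Values and intervals were computed with pandas 2.3.3 and numpy 2.4.6 in Python 3.11.15, and figures were made with matplotlib 3.10.9.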

Additional observations from a re-analysis of the deposited data

How the results depend on the processing

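Over 18 results, alternative settings gave 81 values, and 43 of these stayed within counting error or within 1.5 times the count. The 87-base segment kept its direction and its side of 20 points in each pair with no length correction and with inclusion reads only. Between homozygous and wild type the count of differing member parts was 2 at 10 points, 0 at 30 points and 3 with no length correction. Between heterozygous and wild type it was 1 with no length correction. Between homozygous and heterozygous it was 0 at 30 points and 1 with at least 20 or at least 100 reads. The muscle exon with inclusion reads only differed by 6.15 points for homozygous minus wild type, -3.22 for heterozygous minus wild type and 9.37 for homozygous minus heterozygous. Levels follow as log2 differences, with homozygous over wild type as the first pair, heterozygous over wild type as the next and homozygous over heterozygous as the last. With median-of-ratios scaling, which shifts all genes by 0.22, -0.08 and 0.30, Fxr1 was at 0.35, -0.25 and 0.60, Fxr2 at 0.26, 0.15 and 0.11, and Fmr1 at -0.65 in the first pair and -0.58 in the last. In coding parts only, Fxr1 was at 0.25, -0.11 and 0.36, Fxr2 at 0.18 and 0.33 in the first pairs, and Fmr1 at -0.66, -0.43 and -0.23. Without the part with most reads, Fxr1 was at 0.16 in the first pair and 0.34 in the last, and Fmr1 at -0.26 in heterozygous against wild type and -0.49 in the last. By the median density of parts, Fxr1 was at 0.44, -0.038 and 0.48, Fxr2 at 0.18, 0.62 and -0.44, and Fmr1 at -1.08 and -0.20 in the first pairs, of which -1.08 is past 2-fold. The causes were not tested. No paired analysis was possible because each genotype has 1 library. Depth limits Fmr1 most, with a median of 28 reads per measured part in homozygous muscle.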
